A study of Homo sapiens with 4 samples.

Results

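The miRNA family of miR-34 and its MIR449 relatives was examined in cortical interneurons, inhibitory nerve cells of the cerebral cortex, differentiated in culture from H1, an established human embryonic stem cell line. Its members were picked by name and comprised 9 of the 2656 mature miRNAs in the count table: hsa-miR-34a-5p, hsa-miR-34a-3p, hsa-miR-34b-5p, hsa-miR-34b-3p, hsa-miR-34c-5p, hsa-miR-34c-3p, hsa-miR-449a, hsa-miR-449b-5p and hsa-miR-449c-5p. Small RNA-seq libraries came from 2 cultures kept in 50 to 100 mM ethanol for 7 days (ethanol-exposed) and from 2 cultures grown for 7 days without it (unexposed), all of the H1 line, and per the study's methods all cells then spent a day in ethanol-free medium before collection. Any ethanol response in these data is therefore a response of 1 cell line, read after withdrawal. The comparison asked whether a week of ethanol changed the amount of these miRNAs.

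miRNAs are short RNAs that guide silencing complexes to messenger RNAs, mainly through the seed, bases 2 to 8 from the 5′ end. Each hairpin precursor can yield a mature miRNA from its 5′ arm (5p) and from its 3′ arm (3p), and usually 1 arm of the pair is kept. MIR34A and the MIR34B/MIR34C cluster are textbook transcriptional targets of the tumour suppressor p53, and their 5p products restrain cell cycle and Notch pathway genes. The MIR449 genes encode relatives with the same or a shifted seed that are abundant in multiciliated cells, where both branches act together in the formation of motile cilia.

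The members came from 3 loci on GRCh38 (positions from RefSeq, overlaps from GENCODE 29). MIR34A is at chromosome 1, 9151668 to 9151777, within an exon of the long noncoding host gene MIR34AHG. MIR34B (chromosome 11, 111512938 to 111513021) and MIR34C (111513439 to 111513515) are 417 bases apart on the plus strand, inside the RefSeq spans of BTG4 and of the noncoding gene MIR34BHG, and outside any other GENCODE 29 gene. MIR449A (chromosome 5, 55170532 to 55170622), MIR449B (55170646 to 55170742) and MIR449C (55172262 to 55172353) lie on the minus strand in introns of CDC20B, a gene of multiciliated cells.

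A mature sequence was matched in the RefSeq table (GRCh38.p14) for 8 of the 9 members, all but hsa-miR-34c-5p. The matched sequences are shown 5′ to 3′ with the seed in capitals, because the seeds divide the family. The first group has the seed GGCAGUG.
hsa-miR-34a-5p: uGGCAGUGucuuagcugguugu
hsa-miR-449a: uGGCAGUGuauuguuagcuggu
hsa-miR-449b-5p: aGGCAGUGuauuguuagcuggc

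In the second group the same letters stand 1 base further from the 5′ end, so the seed reads AGGCAGU. Of the 2370 mature miRNAs in the RefSeq table, 1 that is no member shares a seed with a member, hsa-miR-2682-5p, and it is listed here.
hsa-miR-34b-5p: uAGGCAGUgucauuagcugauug
hsa-miR-449c-5p: uAGGCAGUguauugcuagcggcugu
hsa-miR-2682-5p: cAGGCAGUgacuguucagacguc

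The 3p members have 3 different seeds and resemble one another, with 16 of 22 bases matched between miR-34a-3p and miR-34b-3p. The 3p arms of MIR34B and MIR34C share the run aaucacuaac, offset by 1 base, so that their seeds differ.
hsa-miR-34a-3p: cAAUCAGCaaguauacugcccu
hsa-miR-34b-3p: cAAUCACUaacuccacugccau
hsa-miR-34c-3p: aAUCACUAaccacacggccagg

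The closest of the 8 matched members were miR-449a and miR-449b-5p, which matched at 20 of 22 bases through the shared run ggcaguguauuguuagcugg. miR-34a-5p and miR-449a matched at 15 of 22 bases. The methods do not say how reads that match more than 1 of these sequences were assigned. The separate counts of miR-449a and miR-449b-5p are therefore uncertain. Without a matched sequence, miR-34c-5p was not compared with any member, so the same doubt was not checked for its counts.

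The libraries held 12100425 to 24858230 counts, and each exposed library was deeper than each unexposed library. A level of 3 counts, the smallest taken as above 0, was 0.121 to 0.248 CPM (counts scaled to a common library total) before composition was corrected. The 4 neuronal markers checked (miR-124-3p, miR-9-5p, miR-128-3p and miR-7-5p) summed to 292800 to 379100 CPM in exposed and 354400 to 473300 CPM in unexposed cells. The 8 markers of pluripotent stem cells summed to 2.42 to 2.92 CPM in exposed and 3.48 to 3.89 CPM in unexposed cells. These low sums stood apart between the groups, a difference that was not tested. Of these markers, 3 (miR-367-3p, miR-371a-3p and miR-373-3p) had 0 counts throughout. The 4 mesenchymal markers summed to 56.9 to 77.5 CPM in exposed and 70.9 to 88.8 CPM in unexposed cells. Nearly all of this was miR-143-3p, at 54.8 to 86.9 CPM over the libraries. In contrast, miR-199a-5p, miR-214-3p and miR-145-5p each stayed at 2.12 CPM or less. The list left out miR-199a-3p and miR-199b-3p, which have the same mature sequence. These stood higher, at 21.8 to 31.6 and 10.9 to 15.9 CPM over the libraries. Of the 3 leukocyte and microglial markers, 2 (miR-223-3p and miR-142-3p) were at 0. Levels below are CPM scaled by TMM, edgeR's correction for library composition, over all counts of a library. A read covers a whole mature miRNA, so CPM needs no correction for length, but the efficiency with which each sequence enters a library was not measured.

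The family was present at low to moderate levels and was carried by 2 of its members. miR-34a-5p was the highest, with 532 and 442 counts after ethanol and 277 and 221 counts without it. Scaled, these were 21.1 and 18.2 CPM against 23.5 and 17.2 CPM. The unexposed cultures enclosed the exposed ones, so the groups overlapped. By count miR-34a-5p ranked between 273 and 315 among the 2656 miRNAs.

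miR-34c-5p, the main product of the MIR34B/MIR34C cluster, followed with 349 and 368 counts after ethanol and 194 and 182 counts without it. These corresponded to 13.8 and 15.1 CPM against 16.4 and 14.1 CPM, again with overlapping groups. Its level was the most even of the 5 members tested below, with a range of 13.8 to 16.4 CPM over the 4 cultures. miR-34a-5p exceeded miR-34c-5p in each of the 4 libraries, by 1.52 and 1.20 times after ethanol and 1.43 and 1.21 times without it. The ranges of the pair over libraries were apart. Within exposed replicate 2, however, the 95% Wilson intervals of the unscaled shares overlapped (16.2 to 19.5 CPM for miR-34a-5p and 13.4 to 16.4 CPM for miR-34c-5p), and so they did in unexposed replicate 2 (16.0 to 20.8 and 13.0 to 17.4 CPM). These intervals cover counting error only, since the reads carried no molecular identifiers. Together both miRNAs made up 84.7% to 90.1% of the family's counts in a library.

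**Figure D1:**
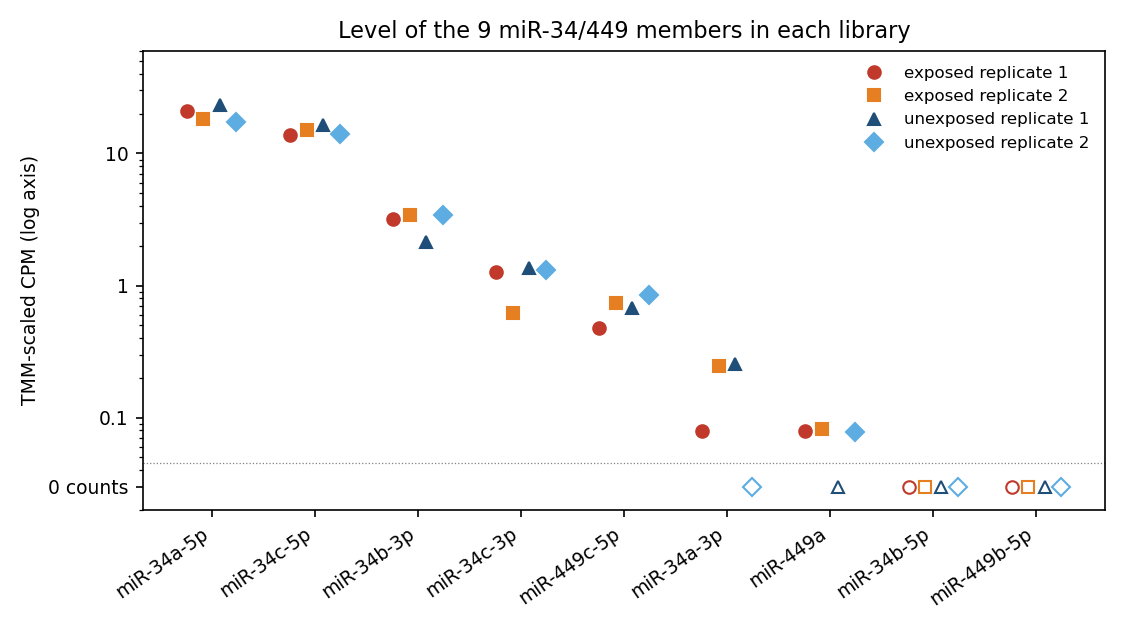
Level of each of the 9 members (x axis, ordered by mean level) in each of the 4 libraries (points), in TMM-scaled CPM on a log axis, with open symbols below the dotted line for 0 counts. miR-34a-5p and miR-34c-5p lie between 13.8 and 23.5 CPM in every library, miR-34b-3p between 2.12 and 3.42 CPM, and miR-34b-5p and miR-449b-5p have 0 counts throughout.

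miR-34b-3p came next in the order, with 80 and 83 counts after ethanol and 25 and 44 counts without it. Its levels of 3.17 and 3.41 CPM in exposed cells lay between the 2.12 and 3.42 CPM of the unexposed cells. Unexposed replicate 1 was the low culture. There the count of miR-34b-3p was 0.129 times that of its cluster mate miR-34c-5p, against 0.226 to 0.242 times in the other 3 libraries.

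miR-34c-3p was measured at 1.27 and 0.616 CPM (32 and 15 counts) after ethanol and at 1.36 and 1.32 CPM (16 and 17 counts) without it. Exposed replicate 2 was low, while exposed replicate 1 was close to the unexposed cells. Both exposed values were below both unexposed values, as in 14.6% of the 863 tested miRNAs (126), whereas 18.8% (162) had both exposed values above both unexposed ones. miR-34c-3p was the 1 tested member of 5 whose groups stood apart after scaling. Before scaling they overlapped, at 1.44 and 0.603 CPM against 1.15 and 1.40 CPM.

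The MIR449 products were close to the limit of detection. miR-449c-5p had 12 and 18 counts after ethanol and 8 and 11 counts without it, or 0.476 and 0.739 CPM against 0.678 and 0.855 CPM. Its range overlapped that of miR-34c-3p, and miR-34c-3p was above it in 3 of the 4 libraries. miR-449a had 2 counts in either exposed culture, and 0 and 1 count in the unexposed ones. miR-449b-5p had 0 counts in all 4. The 95% Wilson intervals of its unscaled share reached 0.1729 and 0.1545 CPM after ethanol and 0.2755 and 0.3175 CPM without it. The other arms of these precursors, which are no members, held no more: miR-449b-3p had 0 or 1 count and miR-449c-3p 0 counts in every library. The MIR449 genes thus supplied 1.39% to 2.52% of the family's counts (95% Wilson intervals within 0.777% to 4.35%). miR-449c-5p supplied most of that share, although the 3 hairpins lie in the same host gene.

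The epithelial markers, checked because MIR449 is best known from ciliated epithelium, summed to 81.1 to 112 CPM in exposed and 101 to 163 CPM in unexposed cells over the 5 miRNAs of the list (miR-200a-3p, miR-200b-3p, miR-200c-3p, miR-141-3p and miR-429). The choroid plexus markers miR-204-5p and miR-211-5p summed to 798 to 988 and 876 to 957 CPM. An unadjusted P under 0.05 in edgeR was found for 1 of the 4 neuronal markers tested, 1 of the 4 epithelial markers tested and 0 of the 2 choroid plexus, 2 pluripotent and 3 mesenchymal markers tested, beside 4.52% of all tested miRNAs. They were miR-124-3p of neurons, at 5405 and 3362 CPM after ethanol and 2947 and 2190 CPM without it (log2FC, the log2 of exposed over unexposed, 0.77, standard error [SE] 0.30, adjusted p = 0.922), and miR-200a-3p of epithelium, at 2.63 ± 0.237 CPM after ethanol and 4.26 ± 0.0898 CPM without it (both SD, n = 2; log2FC -0.70, SE 0.30, adjusted p = 0.922). The other neuronal markers had log2FC values of -0.64 (miR-7-5p, SE 0.35, both exposed values below both unexposed values), -0.23 (miR-9-5p, SE 0.34) and 0.31 (miR-128-3p, SE 0.31), so the signs within the list differed. Among the other epithelial markers tested, miR-200b-3p had a log2FC of -0.63 (SE 0.28), both exposed values being below both unexposed values. Those of miR-200c-3p and miR-429 were -0.36 (SE 0.36) and -0.056 (SE 0.38), with overlapping groups. A positive log2FC was found for 0 of the 4 epithelial markers tested, against 421 of all 863 tested miRNAs. The part of these markers in the family's values was not tested. In RNA from whole cultures, fewer cells of a type and less RNA per cell cannot be told apart.

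The 5p and 3p arms of the precursors were counted very unequally, and MIR34B in the opposite sense to MIR34A and MIR34C. The MIR34A and MIR34B hairpins are printed with both mature arms in capitals, the 5p arm first, since they differ in the arm that was recovered.
MIR34A: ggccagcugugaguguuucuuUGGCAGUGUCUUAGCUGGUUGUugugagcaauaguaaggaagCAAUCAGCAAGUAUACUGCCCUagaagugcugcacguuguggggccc
MIR34B: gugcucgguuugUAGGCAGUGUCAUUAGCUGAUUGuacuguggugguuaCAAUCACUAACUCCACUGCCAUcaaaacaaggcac

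From MIR34A, the 5p arm took 99.6% and 98.7% of the counts of both arms after ethanol and 98.9% and 100% without it. miR-34a-3p had 2 and 6 counts after ethanol and 3 and 0 counts without it. From MIR34C, the 5p arm took 91.6% and 96.1% after ethanol and 92.4% and 91.5% without it. The lower bounds of the 95% Wilson intervals were 96.9% or more for MIR34A and 86.8% or more for MIR34C. No counts of miR-34b-5p were recorded from MIR34B: in every library 0 counts stood against the 25 to 83 counts of miR-34b-3p. How reads matching several mature sequences were assigned is not stated, and miR-34b-5p was not compared with miR-34c-5p. Nor was the efficiency with which either arm enters a library measured, so arm use in the cells was not tested. Divided by a floor of 3 counts for miR-34b-5p, the miR-34b-3p counts gave ratios of 26.7 and 27.7 after ethanol and 8.33 and 14.7 without it. These ratios leave out the counting error of miR-34b-3p, so they are not lower bounds. The 95% Wilson interval of the 5p share reached 4.58%, 4.42%, 13.3% and 8.03%.

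**Figure D2:**
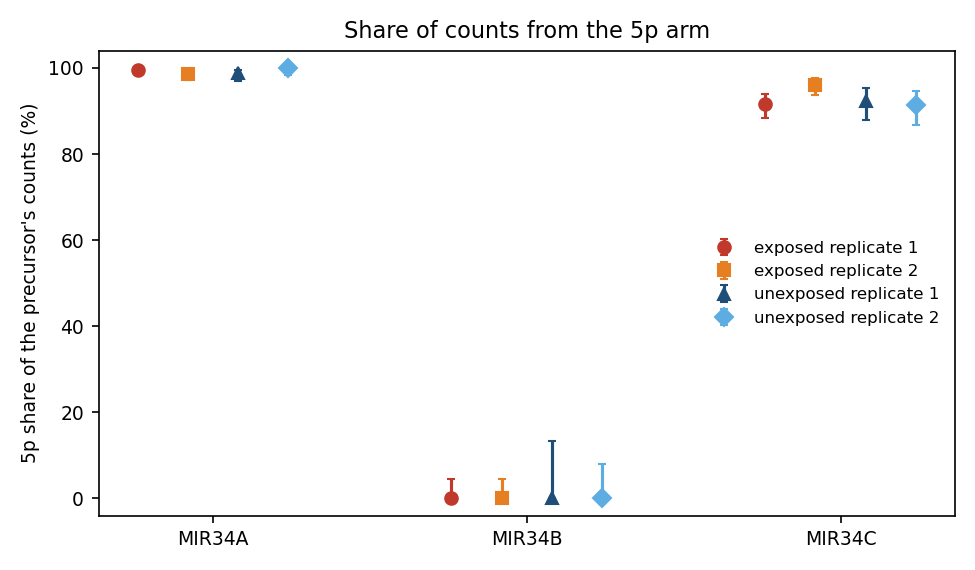
Share of each precursor's counts that came from its 5p arm (y axis, percent), for MIR34A, MIR34B and MIR34C in each library, with 95% Wilson intervals that cover counting error only. MIR34A and MIR34C lie at 91.5% or more in every library and MIR34B at 0%.

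The 5p output of the chromosome 11 cluster was thus read from miR-34c-5p alone. Counted by locus, MIR34A supplied 52.9% and 48.0% of the family in exposed and 53.5% and 46.4% in unexposed cells, and MIR34B with MIR34C supplied 45.7% and 49.9% against 44.9% and 51.1%. The balance between the p53-responsive loci differed more between replicates than between exposed and unexposed cells.

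With ethanol, no member passed any threshold. edgeR's quasi-likelihood test was fitted to the 863 miRNAs that passed a filter on low counts, and 5 of the 9 members were among them (miR-34a-5p, miR-34b-3p, miR-34c-5p, miR-34c-3p and miR-449c-5p). Of these 5, 0 had an unadjusted P under 0.05, against 4.52% of all tested miRNAs (39), and 0 were past a fold change of 2 as well, against 2.32% (20). After Benjamini-Hochberg adjustment the share under 0.05 was 0% of all tested miRNAs (0 of 863), and limma-voom and DESeq2 gave 0 as well, with 31 and 28 at an unadjusted P under 0.05. Both tools also gave 0 members with an unadjusted P under 0.05. A count of 0 among 5 is near these background shares and says nothing particular of the family. The median log2 fold change (exposed over unexposed) was -0.079 over the 5 members and -0.010 over all 863.

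The abundant members had the narrowest intervals. The mean of miR-34a-5p was 19.6 ± 2.08 CPM after ethanol and 20.3 ± 4.46 CPM without it (both SD, n = 2). This gave a log2FC of -0.050, with an SE of 0.28, an edgeR adjusted p = 0.983 and a 95% interval from -0.71 to 0.61. Ratios of exposed to unexposed cells above 1.52 or below 0.613 lay outside that interval. For miR-34c-5p the means were 14.5 ± 0.904 and 15.3 ± 1.63 CPM (both SD, n = 2), with log2FC -0.079 (SE 0.27, edgeR adjusted p = 0.983) and an interval from -0.70 to 0.54. Both signs turned positive when libraries were scaled by size only (0.13 for miR-34a-5p and 0.075 for miR-34c-5p) and without unexposed replicate 1 (0.19 and 0.027), and that of miR-34a-5p also without exposed replicate 2 (0.059).

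The rarer members were measured less precisely. The value for miR-34b-3p was 0.24 (SE 0.34, edgeR adjusted p = 0.968) with an interval from -0.55 to 1.03, and without unexposed replicate 1 it was -0.062. The lowest log2FC of the 5 belonged to miR-34c-3p, -0.50 (SE 0.44, edgeR adjusted p = 0.925), with an interval from -1.51 to 0.51. It depended on the exposed library used: without exposed replicate 2 it was -0.070 and without exposed replicate 1 it was -1.11. For miR-449c-5p, log2FC was -0.34 (SE 0.45, edgeR adjusted p = 0.968), with an interval from -1.37 to 0.69. It was -0.057 without exposed replicate 1, -0.68 without exposed replicate 2, -0.50 without unexposed replicate 1 and -0.20 without unexposed replicate 2. A 2-fold decrease of miR-34c-3p or miR-449c-5p lay inside these intervals, and so did a 2-fold increase of miR-34b-3p (upper bound 2.05-fold). An exact two-sided permutation test over the 4 libraries gave 0.333 for miR-34c-3p, 0.667 for miR-34c-5p and miR-449c-5p, and 1 for miR-34a-5p and miR-34b-3p, and 2 cultures against 2 cannot go below 0.333.

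**Figure D3:**
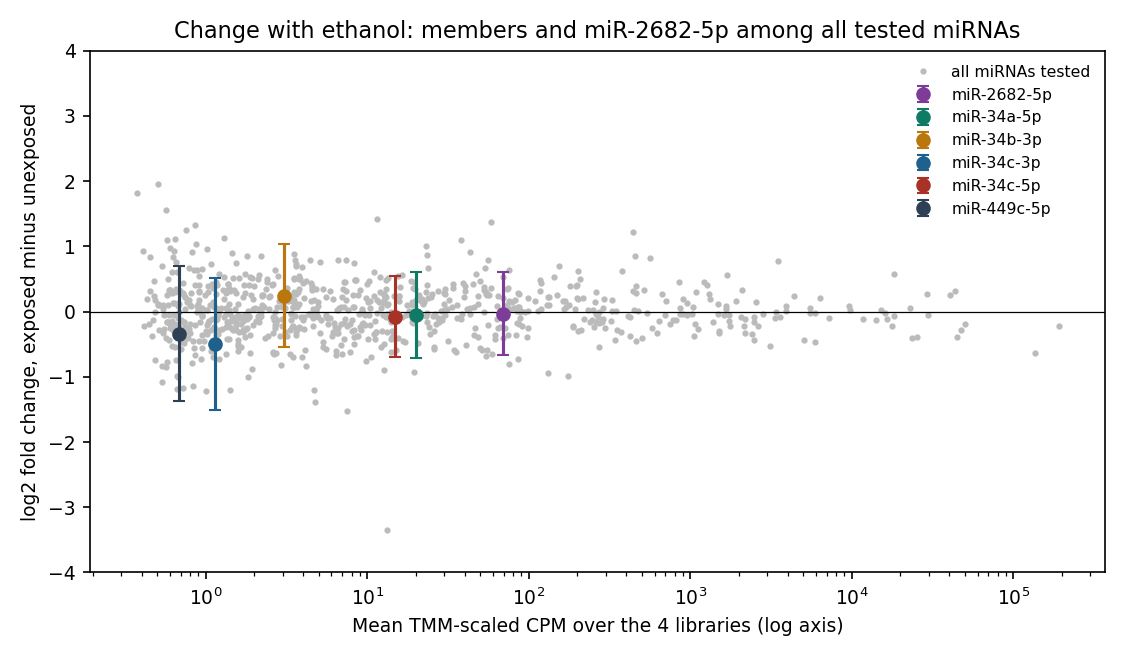
Log2 fold change of exposed against unexposed cells (y axis) by mean TMM-scaled CPM (x axis, log axis) for the 863 miRNAs tested (grey) and, in colour with 95% intervals from edgeR, the 5 tested members and miR-2682-5p. Every coloured interval includes 0. The intervals of miR-34c-3p and miR-449c-5p reach below -1, and that of miR-34b-3p reaches 1.03.

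Summed, the family reached 40.0 and 38.4 CPM after ethanol and 44.3 and 37.0 CPM without it. The exposed cultures again lay within the span of the unexposed ones, and the difference in mean log2 level was -0.048 (exact two-sided permutation test, p = 1, smallest possible 0.333), or 0.10 when scaled by library size only and 0.083 without unexposed replicate 1. The arm ratio of miR-34c, as log2 of 5p over 3p counts with 0.5 added to each, was 3.43 and 4.57 after ethanol and 3.56 and 3.38 without it. The difference of 0.53 (exact two-sided permutation test, p = 0.667) depended on exposed replicate 2, without which it was -0.044.

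miR-2682-5p, the non-member with the AGGCAGU seed, was more abundant than the whole family. Its hairpin lies on chromosome 1 (98045242 to 98045351) in an exon of MIR137HG, 718 bases from that of the neuronal miR-137. It had 1858 and 1541 counts after ethanol and 660 and 1084 counts without it, or 73.7 and 63.3 CPM against 55.9 and 84.2 CPM. These were 1.84 and 1.65 times the summed counts of the 9 members after ethanol and 1.26 and 2.28 times without it. Of the AGGCAGU seed group, summing to 56.6 to 85.1 CPM, the members miR-34b-5p and miR-449c-5p supplied less than 1 CPM. The GGCAGUG group of matched members summed to 17.2 to 23.5 CPM, nearly all of it miR-34a-5p. Without a matched sequence, miR-34c-5p, at 13.8 to 16.4 CPM, was placed in no seed group. The seed sums are therefore incomplete for the family. The log2FC of miR-2682-5p was -0.034 (SE 0.28, edgeR adjusted p = 0.985), or 0.089 with library size only, 0.080 without exposed replicate 2 and 0.25 without unexposed replicate 2. The unexposed cultures again enclosed the exposed ones.

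**Figure D4:**
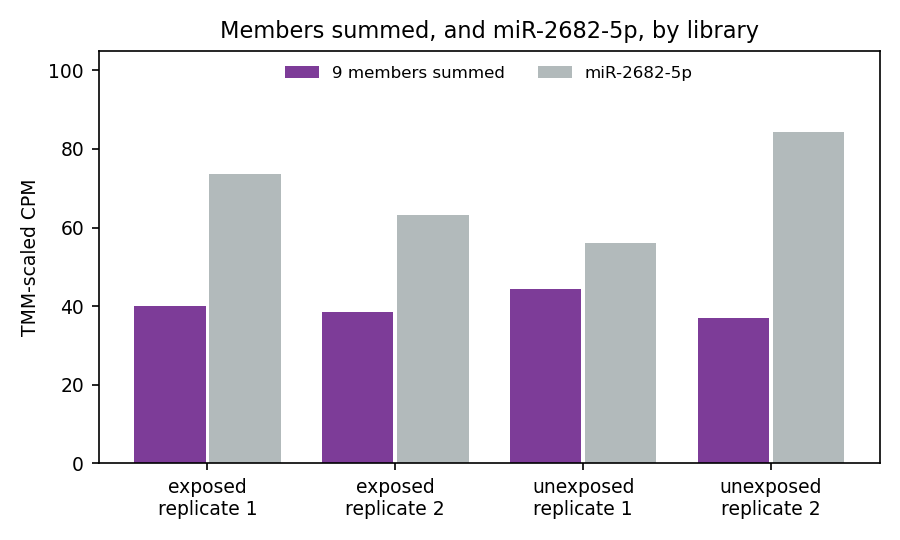
TMM-scaled CPM (y axis, from 0) of the 9 members summed and of miR-2682-5p in each of the 4 libraries (1 bar a library, no error bars). The members sum to 37.0 to 44.3 CPM, and miR-2682-5p is higher in every library, at 55.9 to 84.2 CPM.

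Other miRNAs known to respond to p53 did not pass the test either. The list held 10 miRNAs outside the family (miR-192-5p, miR-194-5p, miR-215-5p, miR-605-5p, miR-107, miR-143-3p, miR-145-5p, miR-200c-3p, miR-1246 and miR-22-3p), of which miR-143-3p, miR-145-5p and miR-200c-3p are also on the mesenchymal or epithelial list. Of the 8 that were tested, 0 had an unadjusted P under 0.05 in edgeR in either direction, beside the 4.52% of all tested miRNAs. Their median log2 fold change was -0.088. The highest log2FC was that of miR-22-3p, at 343 and 286 CPM after ethanol and 254 and 293 CPM without it (log2FC 0.20, SE 0.22, edgeR adjusted p = 0.940). The lowest was that of miR-200c-3p, at 53.6 and 75.7 CPM against 111 and 56.0 CPM (log2FC -0.36, SE 0.36, edgeR adjusted p = 0.937). In both of these the groups overlapped. Of the tested miRNAs on the list only miR-192-5p had groups that stood apart, at 488 and 568 CPM after ethanol and 670 and 592 CPM without it. Its log2FC was -0.26 (SE 0.21, edgeR adjusted p = 0.925). Of all tested miRNAs, 14.6% likewise had both exposed values below both unexposed ones.

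The miRNAs whose pattern over the 4 libraries was nearest to that of miR-34a-5p, by the root mean square difference of centred log2 CPM, were miR-4791 (0.039), miR-199b-3p (0.043) and miR-199a-3p (0.044). All 3 were highest in unexposed replicate 1 and lowest in unexposed replicate 2, like miR-34a-5p. miR-199a-3p and miR-199b-3p have identical mature sequences from 2 and 1 precursors, and their counts stood in a ratio of 2.00, 2.00, 1.99 and 2.01 in the 4 libraries, so they are not separate measurements. The nearest member was miR-34c-5p, which came at rank 101 with a difference of 0.145, and the farthest was miR-34b-3p at rank 683 with 0.40. With 4 libraries this likeness is only a description.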

How the data were processed

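The authors prepared NEBNext small RNA libraries from 4 cultures, processed the reads with CAP-miRseq (version not given in the sources used here) and deposited raw read counts per mature miRNA, with no normalization. The submitters' processing notes name hg19. The table carries no coordinates, and the positions given here are those of GRCh38. Samples were grouped by their titles. Per the methods the exposures were run in duplicate, but no source ties equal replicate numbers to a shared batch or replicates to separate differentiations, so P values measure the spread between these cultures, which may be technical. Replicates were checked for repeated deposition: chi-square per degree of freedom was 795 between the exposed and 712 between the unexposed libraries, far above 1.

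From the counts, edgeR 4.0.16 in R 4.3.3 was run across all miRNAs: filterByExpr by group (minimum count 10, minimum total 15), TMM factors, quasi-likelihood test, Benjamini-Hochberg adjustment. Thresholds were those of the study (2-fold, unadjusted P of 0.05). The F statistic gave standard errors and 95% intervals, with 7.82 degrees of freedom for each tested member. edgeR borrows part of the variance from the other miRNAs, so a standard error is not the spread of a miRNA's own values. Repeats used DESeq2 1.42.0 and limma-voom (limma 3.58.1), other filters and scalings, a replicate block, and the omission of single libraries. The scripts were tested on simulated counts with known changes. Named were all members, their seed mates and other arms, the p53 list, cell type markers, and the 3 nearest patterns to the most abundant member. Of the lists, values were given for P under 0.05 and, for p53, for the highest and the lowest. Values of some other listed miRNAs and of the miR-199 3p arms were given in addition. Members and lists were chosen with earlier results of these data known.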

Additional observations from a re-analysis of the deposited data

How the results depend on the processing

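No member had an unadjusted P under 0.05 in edgeR, limma-voom or DESeq2, under any of the scalings, filters and left-out libraries tried, nor with the replicate number as a block (0 members). Over all miRNAs, the count past both thresholds (2-fold, P of 0.05), 20, was 16 with the replicate block, 10 with DESeq2, 49 with no filter on low counts and 12 with CPM above 1 in at least 2 libraries, and 10 (without exposed replicate 1) to 44 (without unexposed replicate 2) with 1 library left out, or 40 without exposed replicate 2 and 42 without unexposed replicate 1, where the lone library is assumed to vary like the other group. Same-numbered libraries had a correlation of -0.214 between their deviations. With the numbers crossed, an option chosen after seeing the data, the count was 21, with 0 members. With no filter, 6 miRNAs had an adjusted p under 0.05, and with 1 library left out 1 to 18 had (1, 5, 18 and 15 without exposed replicates 1 and 2 and unexposed replicates 1 and 2), none of them a member.

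Library size only moved the median log2 fold change of all miRNAs to 0.145 and upper quartile scaling moved it to -0.119. With library size only the sign turned for miR-34a-5p (0.13), miR-34c-5p (0.075), miR-2682-5p (0.089) and the summed level (0.10). With 1 library left out, values ranged from -0.30 to 0.19 for miR-34a-5p, -0.22 to 0.027 for miR-34c-5p, -0.062 to 0.60 for miR-34b-3p, -0.30 to 0.25 for miR-2682-5p, -0.18 to 0.083 for the summed level and -0.044 (without exposed replicate 2) to 1.10 for the arm ratio of miR-34c. The sign turned without unexposed replicate 1 for miR-34a-5p, miR-34c-5p, miR-34b-3p and the summed level, without exposed replicate 2 for miR-34a-5p and miR-2682-5p, and without unexposed replicate 2 for miR-2682-5p. The cause was not tested. miR-34c-3p and miR-449c-5p kept a negative sign in every fit that tested them, and miR-449c-5p did not pass the CPM filter.

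The counts of the 4 untested members never exceeded 6 in a library, too few to pass the filter. Why their counts were so low was not tested.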
